A study of Mus musculus with 6 samples.

Results

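The RNA exosome subunit genes were examined in naïve CD4 T cells with and without RNMT, the enzyme that methylates the guanosine cap of RNA polymerase II transcripts. The members were the 10 genes Exosc1, Exosc2, Exosc3, Exosc4, Exosc5, Exosc7, Exosc8, Exosc9, Exosc10 and Dis3, matched by symbol, out of 46983 genes in the count tables. All 10 passed the filter of more than 1 CPM in at least 3 libraries (CPM, counts relative to a library size scaled by TMM) and were tested among 12336 genes. Exosc6, the other known gene of this complex, was not analysed here.

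There were 6 libraries of rRNA-depleted total RNA from male mice, 3 labelled Rnmt fl/fl CD4cre - (control) and 3 labelled Rnmt fl/fl CD4cre + (Rnmt cKO). Both groups carried floxed Rnmt alleles on a C57B6/J background, so the Cre transgene and the loss of Rnmt cannot be told apart. Cre was driven by Cd4 regulatory sequence and acts from the double positive stage of the thymus onwards, and ages were not given in the sources used here. Cells were sorted from lymph nodes for TCRb, CD4 and CD62L without CD44 or DAPI staining. Each group was described as a set of separate mice, and whether cells of several mice were pooled in a library was not given in the sources used here.

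The exosome is a barrel-shaped complex of the nucleus and cytoplasm that degrades or trims RNA from its 3′ end. Its ring is built from RNase PH-like proteins that have lost catalysis in animals (EXOSC4 to EXOSC9), and RNA enters the ring through a cap of S1 and KH domain proteins (EXOSC1, EXOSC2 and EXOSC3). Cleavage is carried out by DIS3, an exonuclease with a second, endonucleolytic site, and by EXOSC10, a nuclear exonuclease that is abundant in the nucleolus. The complex matures ribosomal RNA and snoRNA precursors, removes short-lived transcripts made upstream of promoters, and takes part in mRNA decay.

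Sense counts assigned to genes came to between 8873413 and 11277764 per library, and the members held between 167 and 1315 counts each. Rnmt itself held 51.5, 58.7 and 57.9 CPM in controls and 42.0, 37.5 and 26.6 CPM in Rnmt cKO libraries, lower in every Rnmt cKO library. These counts cover all annotated exons of Rnmt, whereas Cre removes only part of the gene. The Rnmt level thus does not measure how complete the deletion was. The paper reports that reads from the deleted exon were lost and that little RNMT protein remained in naïve Rnmt cKO cells. The 7 naïve CD4 T cell markers were abundant in every library, with a summed level between 4274 and 4545 CPM in controls and between 4939 and 5456 CPM in Rnmt cKO cells. Markers of other cells were low, although they moved between groups. The summed level of 5 B cell markers ranged from 31.2 to 37.7 CPM in controls and from 40.2 to 68.8 CPM in Rnmt cKO cells, and that of 5 myeloid markers from 4.19 to 5.74 CPM and from 8.98 to 24.8 CPM, with Cd14 at 0 counts in 5 of the 6 libraries. Markers of CD8 T cells (2 genes) ranged from 21.7 to 23.3 CPM and from 13.5 to 17.3 CPM, and 3 erythroid markers from 4.09 to 6.23 CPM and from 0.986 to 1.10 CPM. The summed level of 8 genes of proliferating cells ranged from 231 to 258 CPM in controls and from 484 to 525 CPM in Rnmt cKO cells. The largest rises in CPM were in Mki67 (means of 15.2 and 117 CPM) and Top2a (19.0 and 112 CPM). Groups overlapped for Mcm2 and Pcna and lay apart for the other genes of that list. The part of these cells in the results below was not tested.

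To see how the members begin, the first transcribed bases were read from the RefSeq promoter table (GRCm38.p6), since mRNAs that start with C and a run of pyrimidines, the TOP mRNAs, are the class the study followed. The table held 9 start sites for 8 members, and Exosc4 and Exosc9 were not in it. The windows below show the members with the highest (Exosc3) and lowest (Exosc7) fold change, the member that starts with C (Exosc8) and the catalytic pair, each with 10 bases before and 15 bases from the start, 5′ to 3′ on the strand of the gene, with the first transcribed base in capitals.
Exosc3: agtagataccGgaagctgcgatggt
Exosc7: ggcgcgagctGatgacacgccagcg
Exosc8: aagccctggaCctgtgcactggctt
Exosc10: tacgcccgccTcgggcagccggaac
Exosc10 (second start): ggctccgcgcTtccggtgtgagcgc
Dis3: gttttctcgcGagagtgacctcacc
The Exosc3 window lies at chr4:45320602-45320626 (minus strand), that of Exosc7 at chr9:123113221-123113245, that of Exosc8 at chr3:54735350-54735374 (minus strand) and that of Dis3 at chr14:99099756-99099780 (minus strand). The Exosc10 windows lie at chr4:148558409-148558433 and chr4:148558703-148558727. The gene annotation used for coordinates places the 5′ end of Exosc3 at 45342732, so the Exosc3 window lies inside that gene and not at its annotated end. A start with C followed by at least 4 further C or T bases, read on the transcribed strand at the first base only, was present at 0 of the 9 member start sites and at 2.5% of the 32841 start sites in the table. Exosc8 was the 1 member of the table with C at its start (16.3% of all start sites have one), and its pyrimidine run ended after 3 bases. No match says only that these letters are not at this annotated position.

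No exosome subunit gene passed the test of Rnmt cKO against control cells, and the largest difference, in Exosc3, was 1.23-fold. None of the 10 members reached an adjusted p of 0.05 in the exact test of edgeR (Benjamini-Hochberg), whereas 14.8% of all tested genes did (8.0% higher and 6.84% lower). At an unadjusted p under 0.05 there was 1 member, Exosc3, in the exact test (3087 of the 12336 genes) and 1 in the quasi-likelihood test (3099 genes). DESeq2 gave 0 members at that level (2548 genes), and after adjustment neither of these tools called a member. Log2 fold changes ran from -0.18 to 0.29 with a median of 0.15, beside a median of 0.01 over all tested genes. The median size of the change regardless of direction was 0.18 for the members and 0.17 for all genes. Groups did not overlap for 3 members, or 30.0%, against 31.4% of all tested genes, a share close to the background. Of these, 2 lay higher in Rnmt cKO cells (background 16.6%) and 1 lay lower (background 14.9%).

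**Figure D1:**
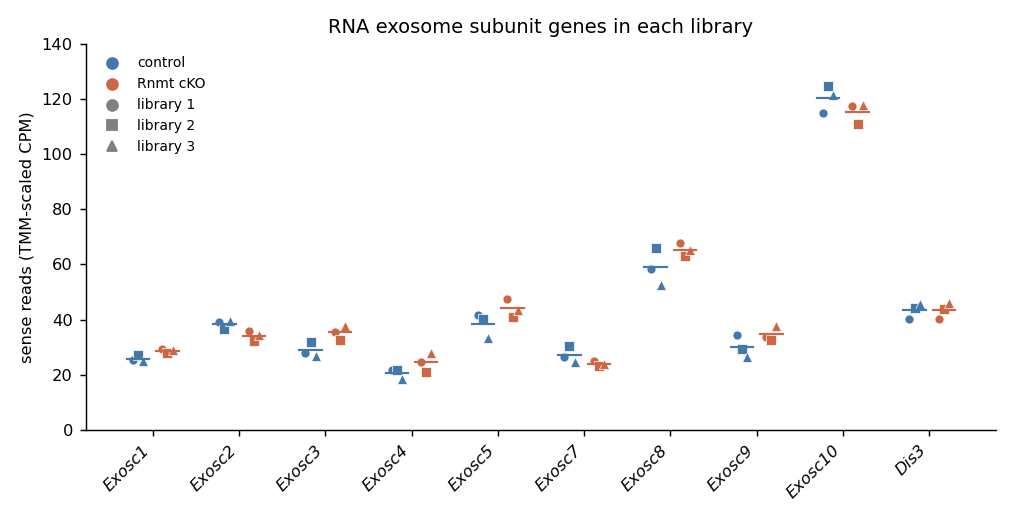
Sense reads of the 10 exosome subunit genes in each library, as TMM-scaled CPM on a linear axis from 0. Points are libraries, with control in blue and Rnmt cKO in orange, and short lines are group means. For most genes the orange and blue points interleave, and Exosc10 stands above the others at 110.9 to 124.8 CPM.

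Among the S1 and KH domain genes of the cap, which guide RNA into the ring, Exosc3 (ENSMUSG00000028322, chromosome 4, 45316613 to 45342732, mm10) showed the largest difference of all members. It held 236, 321 and 241 counts in controls and 337, 388 and 421 counts in Rnmt cKO libraries, or 27.7, 32.04 and 26.6 CPM against 35.6, 32.7 and 37.7 CPM. Every Rnmt cKO library lay above every control, with Rnmt cKO 2 only just above control 2. The log2 fold change was 0.29, a 1.23-fold level, with an exact test adjusted p of 0.0971. The DESeq2 95% interval of the fold ran from 0.998 to 1.48. The gene passed the threshold in 2 alternatives, without scaling beyond library size (0.41, exact test adjusted p of 0.00903) and in the quasi-likelihood fit with the share of reads in no gene as a covariate (0.30, adjusted p of 0.0243). Here and below, reads in no gene are reads assigned to no annotated exon on the sense strand, so reads in introns are among them.

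The other cap genes lay on opposite sides of 0. Exosc1, at 25.4, 27.2 and 24.9 CPM in controls, held 29.4, 27.8 and 28.9 CPM in Rnmt cKO libraries, a log2 fold change of 0.15 with an exact test adjusted p of 0.471. Exosc2 held 39.3, 36.4 and 39.5 CPM in controls and 35.9, 32.3 and 34.2 CPM in Rnmt cKO libraries, a log2 fold change of -0.17 with an exact test adjusted p of 0.353. In both genes the groups did not overlap, by less than 1 CPM, upwards in Exosc1 and downwards in Exosc2. The summed level of the 3 cap genes averaged 93.0 ± 2.42 CPM without Cre and 98.2 ± 4.66 CPM with it (SD of 3 libraries a group), with an exact two-sided permutation p of 0.20.

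The RNase PH-like genes of the ring, whose products form the channel through which RNA is threaded, all had overlapping groups. Exosc4 held 21.6, 21.9 and 18.4 CPM in controls and 24.5, 20.8 and 28.1 CPM in Rnmt cKO libraries. Exosc5 held 41.6, 40.3 and 33.4 CPM in controls and 47.3, 41.1 and 43.6 CPM in Rnmt cKO libraries. In both genes Rnmt cKO 2 lay among the controls, and the log2 fold changes were 0.24 and 0.19. Exosc8 held 58.3, 66.0 and 52.5 CPM in controls and 67.8, 63.0 and 65.2 CPM in Rnmt cKO libraries. Exosc9 held 34.4, 29.4 and 26.3 CPM in controls and 33.6, 32.5 and 37.7 CPM in Rnmt cKO libraries. Their log2 fold changes were 0.15 and 0.20, and the exact test adjusted p of these 4 genes lay between 0.326 and 0.438. Control 3 was the lowest of the 6 libraries for Exosc5, Exosc8 and Exosc9, as it was for Exosc4. Exosc7 was the ring gene with a negative value, at 26.6, 30.3 and 24.5 CPM in controls and 24.8, 23.0 and 24.0 CPM in Rnmt cKO libraries, a log2 fold change of -0.18 with an exact test adjusted p of 0.412. Without scaling beyond library size Exosc5 and Exosc9 passed the threshold, at 0.32 and 0.33 and their adjusted p in the exact test was 0.0471 and 0.0395.

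The genes of the catalytic subunits had the log2 fold changes nearest to 0 with TMM scaling. Without scaling those of Exosc2 (-0.05) and Exosc7 (-0.0604) were nearer to 0 than those of Exosc10 (0.0613) and Dis3 (0.12). Exosc10 (ENSMUSG00000017264), the nuclear exonuclease, held 977, 1250 and 1099 counts in controls and 1112, 1315 and 1315 counts in Rnmt cKO libraries, or 114.9, 124.8 and 121.4 CPM against 117.5, 110.9 and 117.9 CPM. Dis3 (ENSMUSG00000033166), the exonuclease and endonuclease of the core complex, held 40.2, 44.2 and 45.5 CPM in controls and 40.0, 43.9 and 46.1 CPM in Rnmt cKO libraries. The ranges of the groups nearly coincided in Dis3, and log2 fold changes were -0.06 for Exosc10 and 0.0014 for Dis3, and their adjusted p in the exact test was 0.762 and 1. The DESeq2 95% interval of the fold ran from 0.828 to 1.089 for Exosc10 and from 0.832 to 1.18 for Dis3. Over all 10 members these intervals lay between 0.710 (the lower bound of Exosc7) and 1.48 (the upper bound of Exosc3), and each gene has its own, narrower interval.

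**Figure D2:**
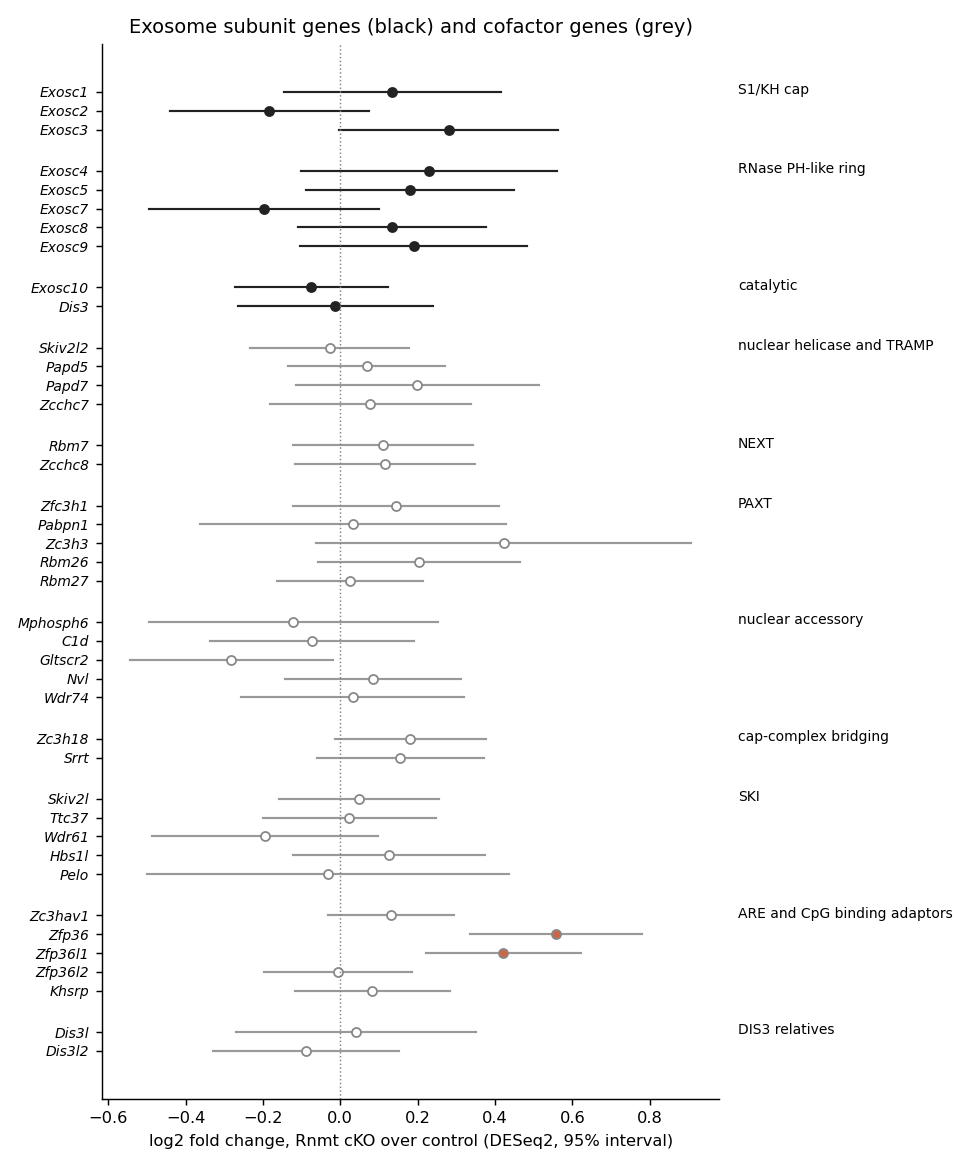
Log2 fold changes of Rnmt cKO over control from DESeq2 with their 95% intervals, for the 10 exosome subunit genes (black) and 30 cofactor genes (grey, open circles), grouped by role. Orange circles mark the genes past the threshold in the exact test, Zfp36 and Zfp36l1, and the interval of every subunit gene crosses 0.

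Taken as a sum, the 10 members held 430.0, 452.7 and 413.0 CPM in controls and 456.6, 428.1 and 463.4 CPM in Rnmt cKO libraries. The groups overlapped, with Rnmt cKO 2 below controls 1 and 2, and the means of 432 ± 19.9 and 449 ± 18.7 CPM (SD of 3 libraries a group) gave an exact two-sided permutation p of 0.30. The shares of the parts of the complex also overlapped between groups. Ring genes made up 40.5 ± 2.60% of the sum in controls and 42.8 ± 0.620% in Rnmt cKO cells, and the catalytic genes 37.9 ± 2.24% and 35.3 ± 0.830% (SD of 3 libraries a group, exact two-sided permutation p of 0.20 for each). With 3 samples against 3 the smallest p this test can give is 0.10. Coefficients of variation between libraries of a group ran from 4.18% (Exosc10) to 13.7% (Exosc9) in controls and from 2.89% (Exosc1) to 14.7% (Exosc4) in Rnmt cKO cells.

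Levels were compared between members only per length, as RPKM (CPM per kilobase of exon in the GENCODE vM21 basic annotation). In controls the order of mean RPKM was Exosc8 (45.3 ± 5.21), Exosc10 (43.1 ± 1.80), Exosc3 (26.7 ± 2.66), Exosc7 (25.8 ± 2.81), Exosc2 (22.8 ± 1.02), Exosc5 (19.9 ± 2.30), Exosc9 (18.6 ± 2.54), Exosc4 (11.5 ± 1.06), Exosc1 (10.7 ± 0.520) and Dis3 (8.41 ± 0.537), each with SD and n = 3. The control ranges of neighbours overlapped for Exosc8 and Exosc10, for Exosc3 and Exosc7, for Exosc7 and Exosc2, for Exosc5 and Exosc9, and for Exosc4 and Exosc1. Breaks without overlap lay between Exosc10 and Exosc3, Exosc2 and Exosc5, Exosc9 and Exosc4, and Exosc1 and Dis3. The highest and lowest members thus differed 5.39-fold per length, although their products are subunits of the same complex. The median member, at 21.3 RPKM, lay above the median of 10.6 RPKM over 10390 tested protein-coding genes, and single members ranged from the 43.0th percentile (Dis3) to the 89.5th (Exosc8). Dis3 was low per length and has the longest exonic sequence of the members, 5150 bases, while its level of 43.3 CPM in controls was the third highest on the CPM scale. Rankings are approximate, since reads were counted over all annotated exons of a gene, whichever transcript was made.

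**Figure D3:**
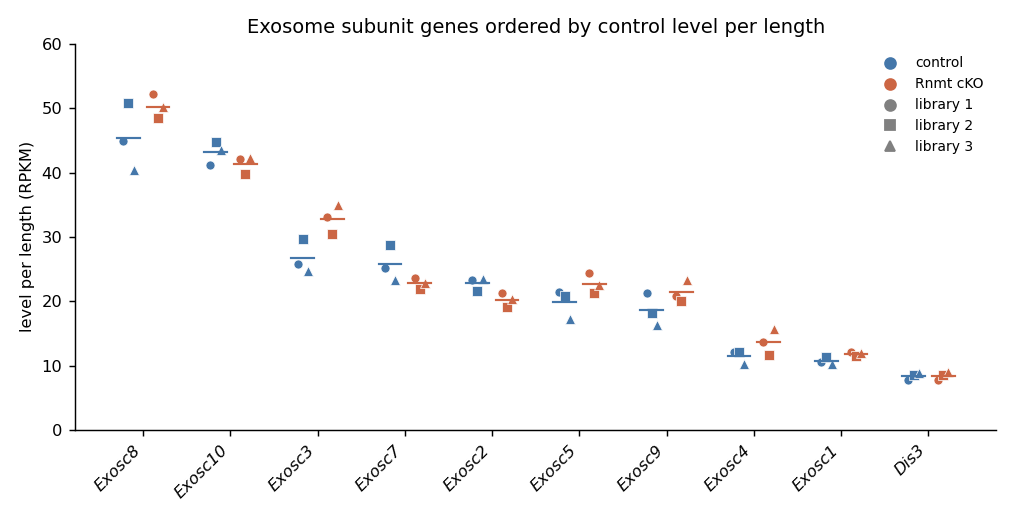
Level per length (RPKM, linear axis from 0) of the exosome subunit genes in each library, ordered by the control mean, with control in blue, Rnmt cKO in orange and group means as short lines. Exosc8 and Exosc10 form the top pair above 39 RPKM in every library, and Dis3 is lowest at 7.78 to 8.95 RPKM.

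The order was retained in Rnmt cKO cells in its main features. Exosc8 (50.3 ± 1.86 RPKM) and Exosc10 (41.4 ± 1.40 RPKM) were again highest and Dis3 (8.41 ± 0.591 RPKM) lowest (SD, n = 3). Exosc2 (20.3 ± 1.07 RPKM) and Exosc7 (22.8 ± 0.856 RPKM) lay close to Exosc5 (22.7 ± 1.62 RPKM) and Exosc9 (21.4 ± 1.71 RPKM) there. As a description over 10 genes that share their libraries, the lowest Spearman correlation of member RPKM between any pair of libraries was 0.867. The ratio of Exosc10 to Dis3 per length was 5.14 ± 0.186 in controls and 4.94 ± 0.417 in Rnmt cKO cells (SD of 3 libraries a group, exact two-sided permutation p of 0.50).

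Reads on the strand opposite to the members set Exosc9 apart. The libraries kept strand information, so reads from the opposite strand of each gene's exons could be counted separately. Exosc9 held 1, 3 and 4 such reads in controls and 28, 37 and 43 in Rnmt cKO libraries, 8 against 108 in all. Adjusted for library size this was 11.5-fold more in Rnmt cKO cells, with an exact 95% counting interval from 5.62 to 27.2. Every Rnmt cKO library lay far above every control. In an edgeR exact test of the other-strand counts of 6714 genes, a test added after the data were seen, the log2 fold change was 3.46 with an adjusted p of 2.96e-11. In that test 2.06% of genes were higher and 0.566% were lower.

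The opposite strand at Exosc9 carries the end of another gene. Exosc9 (chromosome 3, 36552606 to 36565727, plus strand, mm10) and Ccna2 (ENSMUSG00000027715, chromosome 3, 36564865 to 36572150, minus strand), which encodes cyclin A2, a cyclin of S phase and G2, run towards each other and overlap by 863 bases. Of the exonic sequence, 378 bases are shared, 23.4% of Exosc9 and 10.4% of Ccna2, in the 2 last exons of Exosc9 and the last exon of Ccna2. Sense counts of Ccna2 were 12, 16 and 11 in controls and 153, 235 and 202 in Rnmt cKO libraries, which rose with a log2 fold change of 3.66 and an exact test adjusted p of 8.44e-49. The other-strand reads of Exosc9 corresponded to 20.5% of the Ccna2 sense count in controls (Wilson 95% interval 10.8% to 35.5%). In Rnmt cKO cells they corresponded to 18.3% (15.4% to 21.6%). The control share rests on 8 reads beside 39, with single controls from 8.33% to 36.4%, so the overlap of these intervals cannot decide whether the shares are equal. The Rnmt cKO interval lay above the 10.4% of Ccna2 exonic sequence that is shared, and the reason was not tested. Intervals on read counts hold counting error alone, because PCR copies were not told apart from separate molecules. In bulk RNA, more cells that express Ccna2 and more Ccna2 RNA per cell cannot be told apart, and the summed level of the proliferating cell markers given above was higher in the same libraries. Their part in the other-strand reads was not tested.

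**Figure D4:**
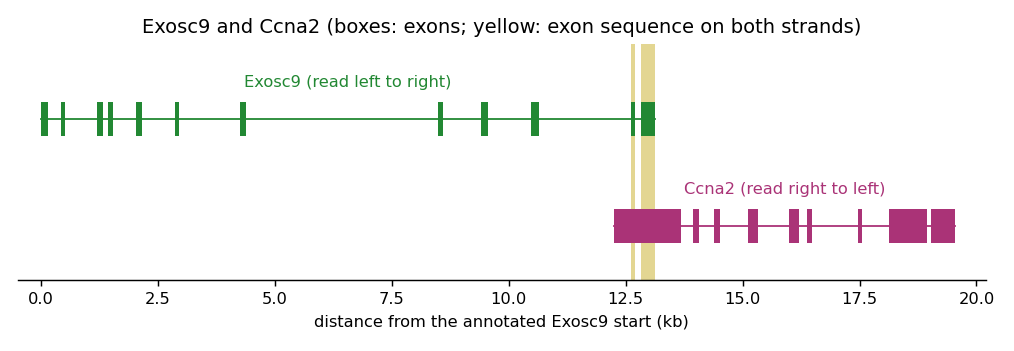
Map of Exosc9 and Ccna2 drawn to scale from the GENCODE vM21 basic annotation (mm10), with distance from the annotated Exosc9 start in kb on the x axis, exons as boxes and the 378 bases that are exonic on both strands in yellow. The shared bases lie in the last exons of Exosc9 and in the last exon of Ccna2.

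The Exosc9 count also depended on how strands were counted. When reads of either strand were counted together, Exosc9 kept only 72.9% of its sense count in controls and 73.4% in Rnmt cKO cells. This was the largest loss among the members, followed by Exosc4 with 85.8% and 81.1%. In GENCODE vM21 the span of Exosc4 overlaps that of Oplah on the other strand by 619 bases, with 0 exonic bases shared. Reads were counted by the authors with GENCODE vM12, where the overlap was not examined. Where the lost reads lie was not tested. For Exosc9 the loss was nearly equal in both groups, and the Exosc9 log2 fold change was 0.21 by either-strand counts and 0.20 by sense counts.

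For the other members other-strand reads were few or did not pass the test. Exosc8 held 10, 23 and 29 other-strand reads in controls and 37, 40 and 25 in Rnmt cKO libraries, with overlapping groups, a log2 fold change of 0.50 and an exact test adjusted p of 0.688. Its annotated end overlaps that of Supt20 on the other strand by 89 bases, of which 85 are exonic in both. Exosc3 held 21, 26 and 28 reads in controls and 27, 32 and 24 in Rnmt cKO libraries (log2 fold change -0.09, exact test adjusted p of 1), and no exon of the annotation lies on the other strand of its exons. Exosc1 and Exosc4 were also tested and had adjusted p-values of 0.933 and 0.999. Exosc2, Exosc5, Exosc7, Exosc10 and Dis3 had between 4 and 21 other-strand reads over all 6 libraries and were not tested. Summed over members, the other-strand share of counts was 1.74 ± 0.431% in controls and 2.42 ± 0.230% in Rnmt cKO cells (SD of 3 libraries a group) with an exact two-sided permutation p of 0.20. Without Exosc9, a gene left out after its rise had been seen, it was 1.79 ± 0.411% and 1.85 ± 0.327%. Summed over all tested genes the share was 3.26 ± 0.0806% in controls and 3.15 ± 0.122% in Rnmt cKO cells (SD of 3 libraries a group), with an exact two-sided permutation p of 0.30. The median share per gene was 0.306 ± 0.0474% in controls and 0.453 ± 0.0373% in Rnmt cKO cells (SD of 3 libraries a group), with groups that did not overlap and an exact permutation p of 0.10.

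**Figure D5:**
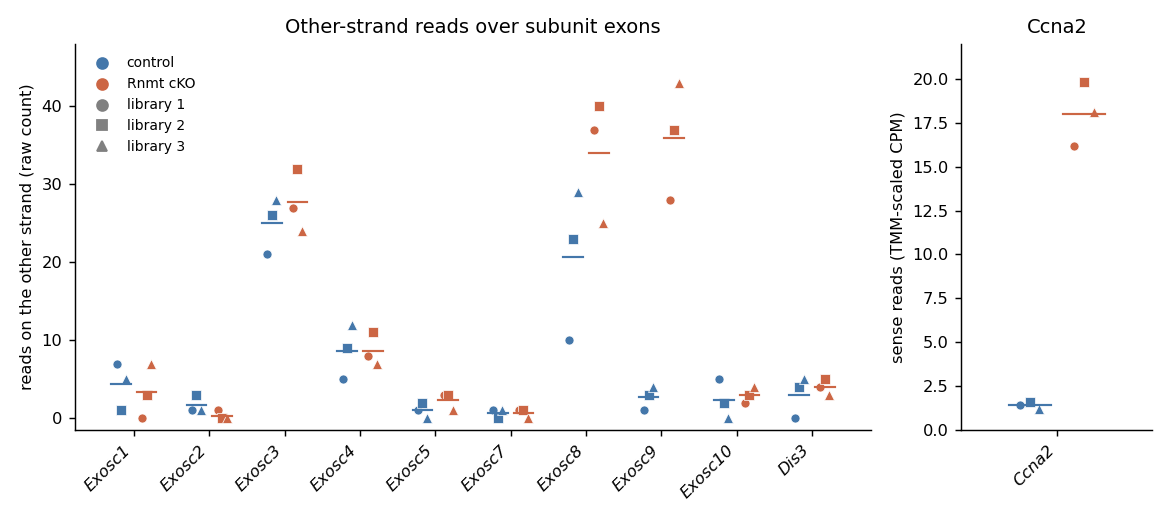
Left, raw counts of reads on the strand opposite to each exosome subunit gene in each library (control in blue, Rnmt cKO in orange, lines at group means). Right, sense reads of Ccna2 as TMM-scaled CPM. The other-strand counts of Exosc9 move from 1 to 4 in controls to 28 to 43 in Rnmt cKO libraries, and Ccna2 shows the same separation.

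The exosome works with cofactors that unwind RNA, add short tails or bring in substrates. A list of 30 cofactor and related genes was tested, 2 of them relatives of Dis3. Of the 30 genes, 2 rose and 0 fell in the exact test, where the background was 8.0% and 6.84%. The share of the 30 that rose was thus not above the background. At an unadjusted p under 0.05 there were 3 of the 30 in each of the exact test, the quasi-likelihood test and DESeq2, beside 3087, 3099 and 2548 of all 12336 genes. The median log2 fold change was 0.09, and groups did not overlap for 6 of the 30, or 20.0%, beside 31.4% of all tested genes. All 6 lay higher in Rnmt cKO cells (background 16.6%) and 0 lay lower (background 14.9%).

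The risen genes both encode zinc finger proteins that bind AU-rich elements of mRNAs and promote their decay. Zfp36, which encodes tristetraprolin, held 86.9, 87.6 and 74.6 CPM in controls and 116.3, 122.3 and 131.4 CPM in Rnmt cKO libraries, a log2 fold change of 0.57 with an exact test adjusted p of 1.08e-06. Zfp36l1 held 119.0, 110.8 and 122.7 CPM in controls and 148.8, 162.6 and 165.1 CPM in Rnmt cKO libraries, a log2 fold change of 0.44 with an exact test adjusted p of 9.56e-05. Each Rnmt cKO library exceeded each control in both genes. Their relative Zfp36l2 averaged 218 ± 15.7 CPM without Cre and 220 ± 1.73 CPM with it (SD of 3 libraries a group), with an exact test adjusted p of 0.988. Khsrp, another protein that binds AU-rich elements, was at 0.10 on the log2 scale with an adjusted p of 0.574, and Zc3hav1, which encodes the antiviral protein ZAP that binds CpG-rich RNA, was at 0.14 with an adjusted p of 0.340.

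Genes of the nuclear adaptor complexes gave 0 calls. Skiv2l2 encodes MTR4, the helicase shared by these complexes, and averaged 103 ± 2.21 CPM without Cre and 102 ± 6.21 CPM with it (SD of 3 libraries a group), with an exact test adjusted p of 0.970. Papd5, Papd7 and Zcchc7 of the tailing complex TRAMP had log2 fold changes from 0.08 to 0.21, and Rbm7 and Zcchc8 of the complex NEXT were at 0.12 and 0.13. The genes of the complex PAXT, which directs long polyadenylated nuclear RNA to the exosome, ran from 0.04 (Rbm27) to 0.43 (Zc3h3), with a lowest exact test adjusted p of 0.208. Srrt and Zc3h18, which link the cap-binding complex to these adaptors, were at 0.17 and 0.19 with adjusted p-values of 0.339 and 0.140. The helper genes Mphosph6, C1d, Gltscr2, Nvl and Wdr74 lay between -0.27 and 0.10.

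Some of these values depended on Rnmt cKO 3. Reads in no gene (on no annotated exon of the sense strand, introns included) made up 31.8% of its uniquely mapped reads. This share was the lowest of all libraries. Rnmt cKO 1 and 2 had 47.9% and 46.5%, and controls ranged from 36.1% to 46.1%. Zfc3h1, the scaffold of PAXT, held 177, 198 and 215 CPM in controls 1, 2 and 3 and 243, 243 and 171 CPM in Rnmt cKO 1, 2 and 3, so its level was low where that share was low. Without Rnmt cKO 3, 5 cofactor genes were higher and 2 were lower. The share of all genes called in that fit is not given here, so these counts cannot be set against a background. Beside Zfp36 and Zfp36l1 the higher genes were Zfc3h1, Rbm26 and Srrt, at 0.29, 0.34 and 0.23, and the lower genes were Gltscr2 and Wdr61, at -0.44 and -0.33, with exact test adjusted p-values between 0.000235 and 0.0383. No exosome subunit gene passed the threshold without that library.

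Among cytoplasmic cofactors, the genes of the SKI complex, which threads mRNA into the cytoplasmic exosome, had log2 fold changes of 0.06 for the helicase gene Skiv2l, 0.04 for Ttc37 and -0.18 for Wdr61. Hbs1l and Pelo, whose products act on stalled ribosomes, were at 0.14 and -0.02, and the lowest exact test adjusted p of these 5 genes was 0.438. Dis3l and Dis3l2, relatives of Dis3 that act in the cytoplasm, were at 0.06 and -0.07 with adjusted p-values of 0.882 and 0.747.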

How the data were processed

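Libraries were made with a TruSeq kit after Ribo-Zero depletion, and 75 bp paired-end reads were aligned by the authors to mm10 with STAR 2.5.2b and the GENCODE vM12 basic annotation. The authors deposited raw counts per gene for each library, and a table of their edgeR comparison with fold changes, p-values and a scaled signal per library. In each library the deposited signal equalled the count in the sense column times 1 constant for 100% of genes (relative tolerance 0.0001), so that column was used. The authors' comparison columns were not used.

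The exact test of edgeR 4.0.16 (R 4.3.3) and the limit of 1 CPM in 3 or more libraries follow the study. TMM scaling was chosen here, since the scaling used for these libraries was not given in the sources used here, so the fit need not equal that of the study. The test was run with Benjamini-Hochberg adjustment over all 12336 genes and a threshold of 0.05. Intervals of fold changes came from DESeq2 1.42.0, and the code was tested on simulated data. Lines of unassigned reads were kept out of library sizes. Other-strand counts were tested with the same exact test on genes with at least 5 such counts in 3 libraries. Coordinates, lengths and overlaps came from GENCODE vM21 on the same build. No pair of replicates was alike within counting noise (chi-square at least 3.64 times its degrees of freedom). Members and lists were chosen with earlier results of these data known. Genes named are all members, every cofactor past the threshold, cofactors by role, some of the genes overlapping a member and Rnmt. Overlaps not described above include Tmem91, with 150 exonic bases shared with Exosc5, and Gm13427, with 54 shared with Exosc2, both on the other strand. Other cofactors named were chosen after their values were seen. Alternatives covered scaling, filter, test, strand, covariate, replicate block and leaving out each library.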

Additional observations from a re-analysis of the deposited data

How the results depend on the processing

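The absence of lower members held in all 15 alternatives, and that of higher members in 13 of 15. Without scaling beyond library size 3 members and 4 cofactors were higher (added to Zfp36 and Zfp36l1 were Zc3h18 and Zc3hav1) and the cofactor median was 0.21. That median was 0.0343 among the 3 libraries with the lower share of reads in no gene and 0.0547 without Rnmt cKO 1, against 0.09 with all libraries and TMM scaling. Leaving out the scaling moves the median of all genes from 0.01 to 0.14, and the higher share of all calls from 53.9% (987 of the calls higher, 844 lower) to 78.4% (1938 higher, 535 lower). In the quasi-likelihood fit with the share of reads in no gene as covariate 1 member and 3 cofactors (Zc3h18 added) were higher and 1 cofactor, Gltscr2, was lower. Leaving out 1 library gave 2 to 5 higher and 0 to 2 lower cofactors. For the covariate fit and the fits without 1 library, the share of all genes called is not given, so their counts have no background. The median log2 fold change of the members ran from 0.09 (without control 3) to 0.27 over 17 alternatives, and was 0.11 among the 3 libraries with the lower share of reads in no gene and 0.25 among the 3 with the higher share. Exosc10 was at 0.061 without scaling. Dis3, near 0, was at -0.012 with RLE scaling or DESeq2, at -0.0035 with either-strand counts, between -0.062 (without Rnmt cKO 3) and 0.052 (without Rnmt cKO 1) with 1 library left out, at 0.12 without scaling, and at 0.13 and -0.12 among the libraries with the lower and the higher share of reads in no gene. Its adjusted p was 0.521 or more in every alternative with a test. The cause of these shifts was not tested.

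Library numbers were shared between groups, and whether same-numbered libraries were linked is not known here. Their deviations from the group means had correlations of -0.213, -0.0164 and -0.345. These values cannot decide it, because differently numbered libraries were not compared. In a fit with the number as a replicate block 0 members and 2 cofactors were higher and 0 of either were lower, with medians of 0.15 and 0.08. Zfp36 and Zfp36l1 passed the threshold in all 15 alternatives, with edgeR or DESeq2 adjusted p-values up to 0.0208 and 0.0361, and the other-strand result of Exosc9 in all 8, with log2 fold changes from 3.13 to 3.87. The precision of the member values, with 3 libraries a group, is that of the plotted intervals.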
